A study of Homo sapiens with 24 samples.

Results

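Spliceosomal small nuclear RNA genes made up 34 of the 14114 genes measured by RNA sequencing in 3 human breast cancer cell lines. They were taken by symbol, as every row whose symbol begins with RNU or RNVU or is U1, U2, U4, U5 or U6. This choice was made with earlier results of these data known. The 34 genes comprised 17 U1, 3 U2, 3 U4, 7 U5 and 1 U6 gene of the major spliceosome, and RNU4ATAC, RNU6ATAC and RNU12 of the minor spliceosome. By symbol, 16 were named genes, 11 were pseudogene copies with a symbol ending in P, and 7 carried a family name without a copy number and are given here with their Ensembl identifier.

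The lines were MDA-MB-157, then MDA-MB-231, with MDA-MB-468 last, which is their order wherever a value is given for each of the 3 lines without its name. They are labelled as basal and triple-negative, that is, lacking estrogen and progesterone receptor and HER2 overexpression. Each was exposed for 3 h to BETd-246 at 100 nM, BETi-211 at 1000 nM, thalidomide at 1000 nM or the solvent DMSO at 0.05% v/v, with 2 libraries for each of the 12 combinations. BETi-211 blocks the acetyl-lysine pockets of the BET proteins, which bind acetylated chromatin and promote transcription by RNA polymerase II. BETd-246 couples that inhibitor to a ligand of the ubiquitin ligase component cereblon and so marks BET proteins for degradation, and thalidomide is such a cereblon ligand on its own. The design text calls the 2 libraries of a group independent biological replicates and takes the DMSO and the thalidomide libraries together as controls, so each line had 4 control libraries.

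Small nuclear RNAs are short, structured RNAs that form the catalytic and recognition core of the spliceosome. U1 pairs with the 5′ splice site, U2 pairs with the branch point, and a U4/U6.U5 tri-particle then joins, in which U4 holds U6 inactive until the reaction starts and U5 aligns the exon ends. A minor spliceosome, with U11, U12, U4atac, U6atac and the shared U5, removes a small class of introns. Most of these genes are transcribed by RNA polymerase II through the SNAPc complex and their transcripts are cut by the Integrator complex, whereas U6 and U6atac are made by RNA polymerase III. Each family has many pseudogene copies in the human genome, and RNVU1 genes are variant U1 genes on chromosome 1.

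The sequences of 8 members, taken from the GRCh38 transcripts of GENCODE 29, are shown because the results below differ between them. RNU4ATAC, which had the largest change with BETd-246, lies at chr2:121530881-121531007 (plus strand). Its capitals mark the binding site of the Sm protein ring (ATTTNTG or ATTTTTTG).
RNU4ATAC: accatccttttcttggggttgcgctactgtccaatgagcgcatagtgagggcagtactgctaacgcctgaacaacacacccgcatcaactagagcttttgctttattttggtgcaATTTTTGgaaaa

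The Sm letters were present in 25 of the 34 members, or 73.5%, and in 540 of the 1900 annotated small nuclear RNA genes, or 28.4%. The 1900 genes are of all families and were not matched to the members by family, so these shares are not a like comparison. A match of the letters alone does not show a working site, and the U6 copy RNU6-850P also held them. Motifs were searched on the transcribed strand, and hits of different motifs shared a base in 0 of the 34 members.

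For U1, the sequences are a variant gene and an unnumbered copy that rose, RNVU1-6 and U1 ENSG00000274210, a pair that is nearly identical to the canonical RNU1-1, RNVU1-7 and U1 ENSG00000277918, and a diverged pseudogene copy, RNU1-122P. Capitals mark the 5′ end that pairs with the 5′ splice site (ATACTTACCTG) and the Sm site, and RNU1-122P holds neither. RNVU1-6 lies at chr1:146052081-146052244 (minus strand), U1 ENSG00000274210 at chr1:148522601-148522765 (plus strand), RNVU1-7 at chr1:148038753-148038916 (minus strand), U1 ENSG00000277918 at chr1:144560666-144560829 (minus strand) and RNU1-122P at chr1:148334612-148334767 (minus strand).
RNVU1-6: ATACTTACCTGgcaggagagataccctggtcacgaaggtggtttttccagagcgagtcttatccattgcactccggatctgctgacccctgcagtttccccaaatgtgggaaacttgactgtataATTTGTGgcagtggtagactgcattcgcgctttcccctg
U1 ENSG00000274210: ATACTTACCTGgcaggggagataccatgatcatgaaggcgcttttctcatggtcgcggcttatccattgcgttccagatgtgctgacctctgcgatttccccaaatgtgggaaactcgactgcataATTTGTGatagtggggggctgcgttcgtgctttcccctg
RNVU1-7: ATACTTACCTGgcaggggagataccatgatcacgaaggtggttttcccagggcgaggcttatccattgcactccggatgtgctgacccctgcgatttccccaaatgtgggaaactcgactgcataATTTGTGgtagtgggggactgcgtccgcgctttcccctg
U1 ENSG00000277918: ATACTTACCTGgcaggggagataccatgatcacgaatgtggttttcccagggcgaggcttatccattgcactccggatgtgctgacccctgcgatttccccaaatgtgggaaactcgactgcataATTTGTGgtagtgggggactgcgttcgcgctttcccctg
RNU1-122P: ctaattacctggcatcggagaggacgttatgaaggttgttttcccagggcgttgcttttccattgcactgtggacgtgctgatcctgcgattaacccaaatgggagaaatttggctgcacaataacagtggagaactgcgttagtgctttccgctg

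RNVU1-7 and U1 ENSG00000277918 were each 99.4% identical to RNU1-1, against 90.9% for RNVU1-6, 91.5% for U1 ENSG00000274210 and 75% for RNU1-122P. The U1 5′ end was intact in 3 of 6 RNVU1 genes, 3 of 6 unnumbered U1 genes and 1 of 5 U1 pseudogene copies. It was present in 36 of 1900 annotated small nuclear RNA genes, or 1.89%, but these are of all families. RNU4-1 at chr12:120293097-120293237 (minus strand) and RNU4-2 at chr12:120291763-120291903 (minus strand) are the U4 genes and differ by 4 edits. Their capitals mark the Sm site.
RNU4-1: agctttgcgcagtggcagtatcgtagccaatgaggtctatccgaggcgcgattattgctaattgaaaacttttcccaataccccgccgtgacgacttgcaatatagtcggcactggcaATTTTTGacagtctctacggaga
RNU4-2: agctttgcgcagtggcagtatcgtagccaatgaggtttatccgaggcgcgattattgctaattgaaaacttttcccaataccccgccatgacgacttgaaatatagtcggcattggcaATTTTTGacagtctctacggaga

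The levels are FPKM, fragments scaled by gene length and by the total of the library, so the read depth behind them is unknown and no counting error can be given. Apart from RNU12, whose row spans 664 bases of a longer non-coding RNA around the small nuclear RNA, the members are 103 to 194 bases long, and column purification of RNA retains molecules of that size poorly. The libraries were made from fragmented, ribosomal-RNA-depleted RNA with random primers and without strand information. Mature RNA, unprocessed 3′ extended transcripts and read-through from either strand can therefore not be told apart. Another annotated gene overlaps 16 of the 34 members, and for 9 that gene is among the 14114 measured. Inside an exon of another gene lie 5 members. Of the 34 members, 7 were within 5 edits of another annotated small nuclear RNA, so that fragments may have been assigned to the wrong copy: RNVU1-7, U1 ENSG00000270722, U1 ENSG00000274428, U1 ENSG00000277918, RNU4-1, RNU4-2 and RNU6ATAC.

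After 3 h of BETd-246, most small nuclear RNA genes stood above the controls in each line, with the largest change for RNU4ATAC. With limma on log2(FPKM + 1) and adjusted p-values over all 14114 genes, 18 of the 34 rose and 0 fell in MDA-MB-157, where 19% of all genes were called higher and 32.4% lower at an adjusted p under 0.05, and 19 members had an unadjusted p under 0.05, all of them higher. In MDA-MB-231, 26 rose and 1 fell, against 14.8% of all genes called higher and 33.3% lower. In MDA-MB-468, 23 rose and 2 fell, against 20.1% higher and 33.7% lower. The median change of the 34 members on the log2(FPKM + 1) scale was 0.84, 1.64 and 1.22 in the 3 lines, and that of all genes was -0.03, -0.05 and -0.03.

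Large rises were rare in the whole table. Only 36 of 14114 genes, 0.255%, rose by at least 1 on the log2 scale in MDA-MB-157, and 14 of them were small nuclear RNA genes. In MDA-MB-231, 58 genes or 0.411% rose by that much and 22 of them were members, and in MDA-MB-468 47 genes or 0.333% did and 18 of them were members. By class, 11, 14 and 13 of the 16 named genes and 7, 12 and 10 of the 18 copies rose in the 3 lines. The shares were 68.8%, 87.5% and 81.2% of the named genes and 38.9%, 66.7% and 55.6% of the copies. Of all genes, 19%, 14.8% and 20.1% were called higher. Under 4 other scalings between libraries, 18 to 22, 26 to 28 and 23 to 25 members rose in the 3 lines. The share of all genes called higher then ran from 7.60% to 40.8%, from 4.68% to 40.4% and from 9.03% to 42.4%, and the share called lower from 22.2% to 40.5%, from 20.8% to 42.7% and from 23.1% to 41.4%. Median-of-ratios scaling moved the median of all genes to 0.09, 0.08 and 0.09 on the log2 scale and that of the members to 0.93, 1.83 and 1.37, which left the distance between the medians above 0.8 in each line.

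**Figure D1:**
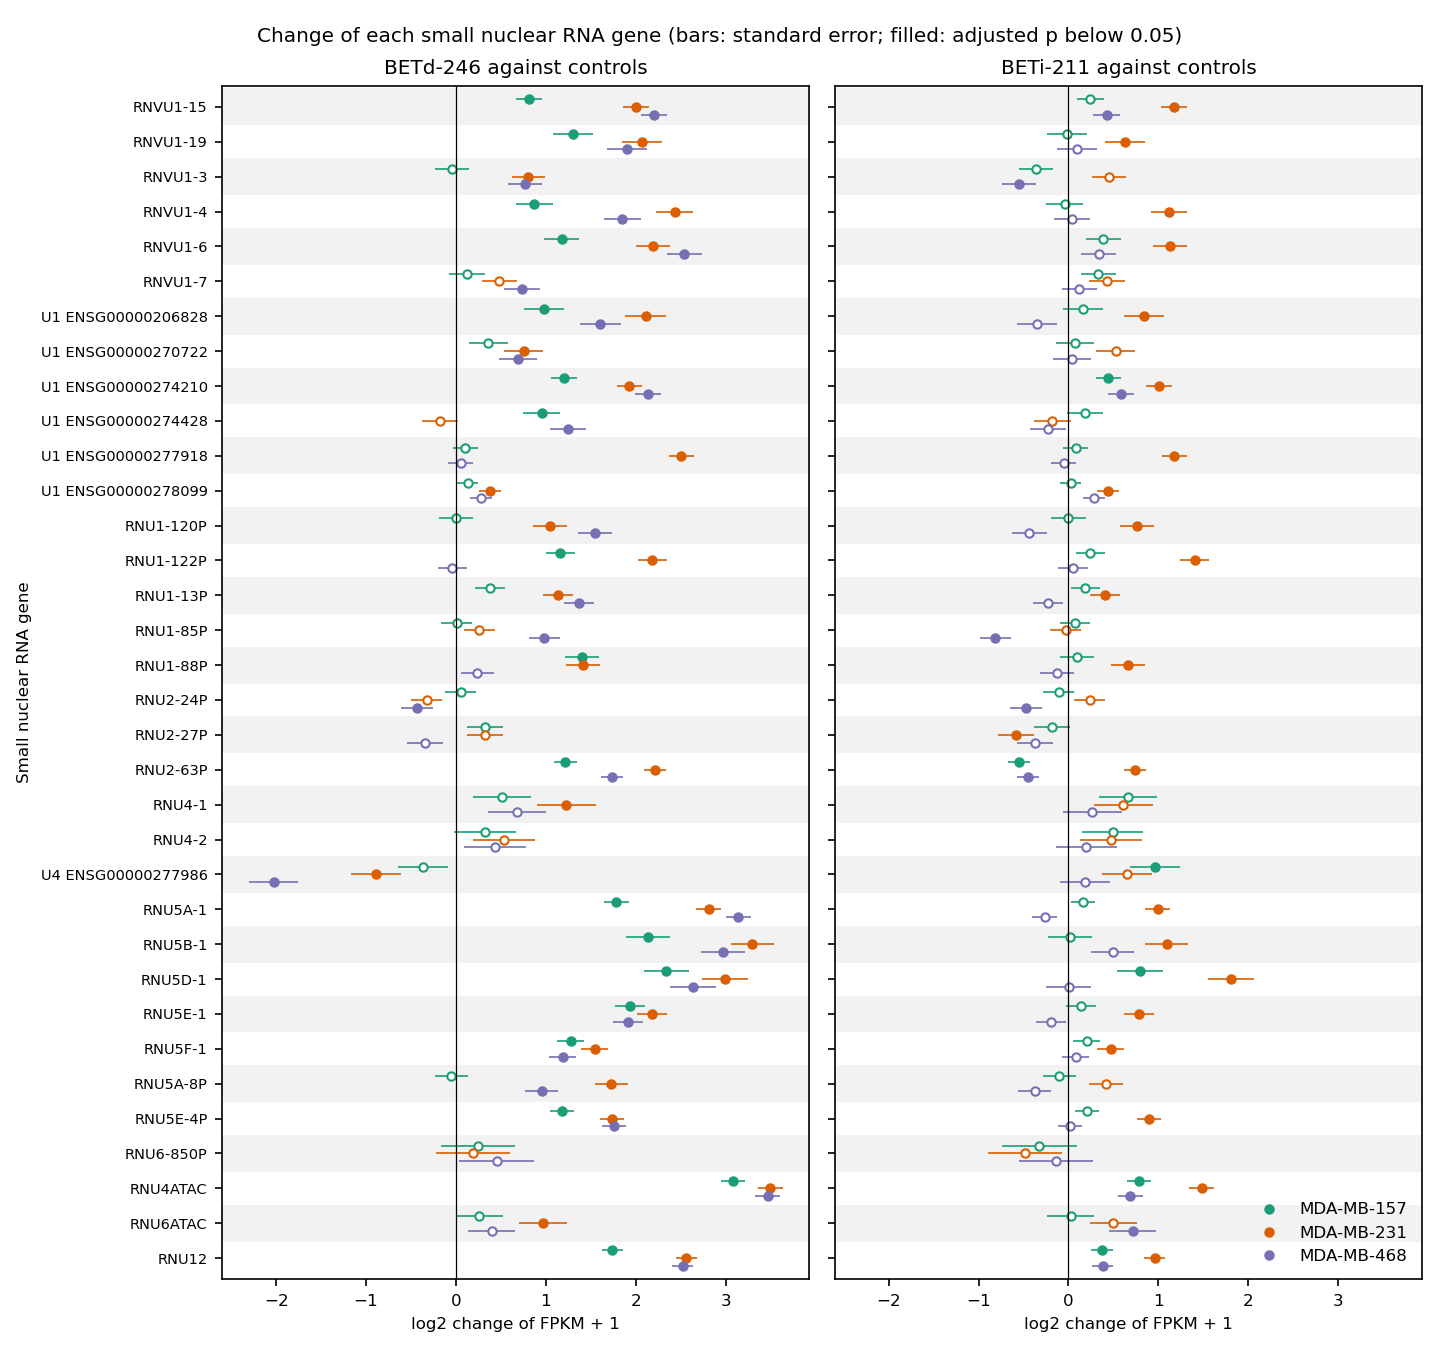
The log2 change of FPKM + 1 of each of the 34 small nuclear RNA genes with BETd-246 (left) and BETi-211 (right) against the controls of the same line, with the standard error as a bar and filled points where the adjusted p is under 0.05. With BETd-246 the points of RNU4ATAC, RNU12 and the named U5 genes lie between 1.19 and 3.5 in all 3 lines, and with BETi-211 the point of MDA-MB-231 is the rightmost of the 3 lines for 26 of the 34 members.

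RNU4ATAC encodes U4atac, the minor spliceosome counterpart of U4, and had the largest change of the 34 members in each line. The MDA-MB-157 values were 75.3 and 76 FPKM with BETd-246 and 14.9 and 14.3 FPKM with BETi-211, against 8.81 and 9.26 FPKM with thalidomide and 6.45 and 7.94 FPKM with DMSO. The MDA-MB-231 values were 94.7 and 105 FPKM with BETd-246 and 23.5 and 24.4 FPKM with BETi-211, against 6.22 and 7.63 FPKM with thalidomide and 11.5 and 7.19 FPKM with DMSO. The MDA-MB-468 values were 115 and 116 FPKM with BETd-246 and 18.3 and 14 FPKM with BETi-211, against 10.7 and 8.78 FPKM with thalidomide and 9.74 and 9.03 FPKM with DMSO. The BETd-246 libraries were the highest in each line, the BETi-211 libraries came next, and neither pair overlapped the controls. With BETd-246 the mean was 9.32 times, 12.3 times and 12.1 times that of the controls in the 3 lines. The log2 change was 3.08 ± 0.14 (SE; limma adjusted p = 1.48e-11), 3.5 ± 0.14 (adjusted p = 2.93e-12) and 3.47 ± 0.14 (adjusted p = 2.14e-12). RNU4ATAC lies on the opposite strand of an intron of CLASP1, a microtubule-binding protein gene, which averaged 13.3, 15 and 11.5 FPKM with BETd-246, against 12.7, 15.1 and 11.1 FPKM in the controls, and did not pass the test in any line.

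RNU12 encodes U12, which pairs with the branch point of minor introns. Its row held 7.67 and 7.49 FPKM with BETd-246 and 2.6 and 2.07 FPKM with BETi-211, against 1.74 and 1.19 FPKM with thalidomide and 2.1 and 1.34 FPKM with DMSO in MDA-MB-157. The values were 21.6 and 19.4 FPKM with BETd-246 and 6.13 and 6.0 FPKM with BETi-211, against 2.47 and 2.99 FPKM with thalidomide and 2.53 and 2.6 FPKM with DMSO in MDA-MB-231. For MDA-MB-468 the values were 29.4 and 31.5 FPKM with BETd-246 and 5.91 and 6.34 FPKM with BETi-211, against 3.87 and 4.95 FPKM with thalidomide and 4.93 and 4.17 FPKM with DMSO. The BETd-246 libraries stood apart from all others in each line. RNU12 rose by 1.74 ± 0.12, 2.56 ± 0.12 and 2.53 ± 0.12 on the log2 scale in the 3 lines (limma adjusted p = 2.59e-09, 1.85e-11 and 1.56e-11).

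RNU6ATAC, the U6atac gene, which is transcribed by RNA polymerase III, changed less. It had 4.43 and 4.13 FPKM with BETd-246, against 3.12 and 3.29 FPKM with thalidomide and 3.48 and 3.74 FPKM with DMSO in MDA-MB-157, and 3.13 and 3.6 FPKM with BETd-246, against 2.6 and 1.58 FPKM with thalidomide and 2.34 and 2.84 FPKM with DMSO in MDA-MB-468. For MDA-MB-231 the values were 3.3 and 6.57 FPKM with BETd-246, against 0.924 and 3.5 FPKM with thalidomide and 1.68 and 2.13 FPKM with DMSO, so that 1 BETd-246 library lay within the control range. It passed the test in MDA-MB-231, with a log2 change of 0.97 ± 0.26 (limma adjusted p = 0.00635), and that call rested on replicate 2, without which the change was 0.56 (adjusted p = 0.169). The changes of 0.26 in MDA-MB-157 and 0.40 in MDA-MB-468 did not pass (limma adjusted p = 0.432 and 0.216), although both BETd-246 libraries lay above every control in these lines. Quantile normalization gave 0.70 (adjusted p = 0.0242) in MDA-MB-468.

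All 5 named U5 genes rose in all 3 lines with BETd-246. U5 is the RNA that both spliceosomes share, and these genes encode its sequence variants. RNU5B-1 had 28.8 and 25.9 FPKM with BETd-246 and 7.64 and 3.88 FPKM with BETi-211, against 5.54 and 4.61 FPKM with thalidomide and 6.38 and 5.34 FPKM with DMSO in MDA-MB-157. MDA-MB-231 libraries had 49.5 and 47.1 FPKM with BETd-246 and 8.94 and 10.5 FPKM with BETi-211, against 2.46 and 4.66 FPKM with thalidomide and 3.31 and 6.48 FPKM with DMSO. MDA-MB-468 libraries had 31.8 and 24 FPKM with BETd-246 and 3.98 and 4.25 FPKM with BETi-211, against 2.03 and 2.46 FPKM with thalidomide and 3.81 and 2.49 FPKM with DMSO. Every BETd-246 library was above every control of its line, and the BETi-211 libraries overlapped the controls in MDA-MB-157 alone. RNU5B-1 rose with BETd-246 by 2.14 ± 0.24, 3.3 ± 0.24 and 2.97 ± 0.24 on the log2 scale (limma adjusted p = 1.83e-06, 8.45e-09 and 2.51e-08).

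RNU5A-1, which lies upstream of RNU5B-1 on the same strand of chromosome 15, had 31.1 and 30.1 FPKM with BETd-246 and 11.1 and 7.77 FPKM with BETi-211, against 7.27 and 8.44 FPKM with thalidomide and 7.72 and 9.49 FPKM with DMSO in MDA-MB-157. The MDA-MB-231 values were 44.8 and 39.3 FPKM with BETd-246 and 9.38 and 13.3 FPKM with BETi-211, against 3.48 and 3.69 FPKM with thalidomide and 7.25 and 7.07 FPKM with DMSO. The MDA-MB-468 values were 50.3 and 58.9 FPKM with BETd-246 and 3.79 and 4.7 FPKM with BETi-211, against 5.76 and 4.74 FPKM with thalidomide and 5.54 and 5.14 FPKM with DMSO. The BETd-246 libraries were the highest in each line, and in MDA-MB-468 both BETi-211 libraries were below every control. RNU5A-1 rose with BETd-246 by 1.78 ± 0.14, 2.81 ± 0.14 and 3.14 ± 0.14 (limma adjusted p = 1.54e-08, 4.48e-11 and 7.86e-12). PARP16, whose intron lies on the opposite strand at RNU5A-1, fell by 0.43, 0.52 and 0.41 on the log2 scale in the same comparisons (limma adjusted p = 5.05e-07, 4.01e-08 and 6.25e-07).

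RNU5D-1 differed in level between lines. With BETd-246 it reached 78.2 and 72.9 FPKM in MDA-MB-468, against 11.5 and 10.9 FPKM with thalidomide and 10.7 and 12.1 FPKM with DMSO. For MDA-MB-231 the values were 17.9 and 23.1 FPKM with BETd-246 and 6.48 and 10.7 FPKM with BETi-211, against 0.82 and 1.75 FPKM with thalidomide and 2.07 and 2.36 FPKM with DMSO. For MDA-MB-157 the values were 23.2 and 19.5 FPKM with BETd-246, against 4.67 and 1.54 FPKM with thalidomide and 3.69 and 4.55 FPKM with DMSO. The BETd-246 libraries lay above the controls in each line, with log2 changes of 2.34 ± 0.25, 2.99 ± 0.25 and 2.64 ± 0.25 (limma adjusted p = 1.01e-06, 4.74e-08 and 1.88e-07). RNU5E-1 was the highest U5 gene of MDA-MB-157, with 73.8 and 71.9 FPKM with BETd-246, against 18.1 and 14.7 FPKM with thalidomide and 21.1 and 20.1 FPKM with DMSO. It rose by 1.93 ± 0.17, 2.18 ± 0.17 and 1.92 ± 0.17 in the 3 lines (limma adjusted p = 6.23e-08, 1.37e-08 and 5.54e-08).

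RNU5F-1, the highest U5 gene in the controls of MDA-MB-231 and MDA-MB-468, changed least of the named U5 genes. It had 25 and 26.8 FPKM with BETd-246, against 9.93 and 8.16 FPKM with thalidomide and 11 and 11.7 FPKM with DMSO in MDA-MB-157. The values were 45.8 and 42.6 FPKM with BETd-246, against 11.2 and 16.5 FPKM with thalidomide and 15.2 and 15.7 FPKM with DMSO in MDA-MB-231. They were 56.4 and 43.5 FPKM with BETd-246, against 20.3 and 19.8 FPKM with thalidomide and 23.6 and 21.1 FPKM with DMSO in MDA-MB-468. Every BETd-246 library was above every control of its line, and the log2 changes were 1.28 ± 0.15, 1.54 ± 0.15 and 1.19 ± 0.15 (limma adjusted p = 2.93e-06, 2.89e-07 and 5.48e-06). The pseudogene copy RNU5E-4P also rose in all 3 lines, by 1.18 ± 0.13, 1.74 ± 0.13 and 1.76 ± 0.13. The copy RNU5A-8P rose in MDA-MB-231 by 1.73 ± 0.19 and in the MDA-MB-468 line by 0.95 ± 0.19, whereas its change in MDA-MB-157 was -0.05 ± 0.19 (limma adjusted p = 0.848).

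**Figure D2:**
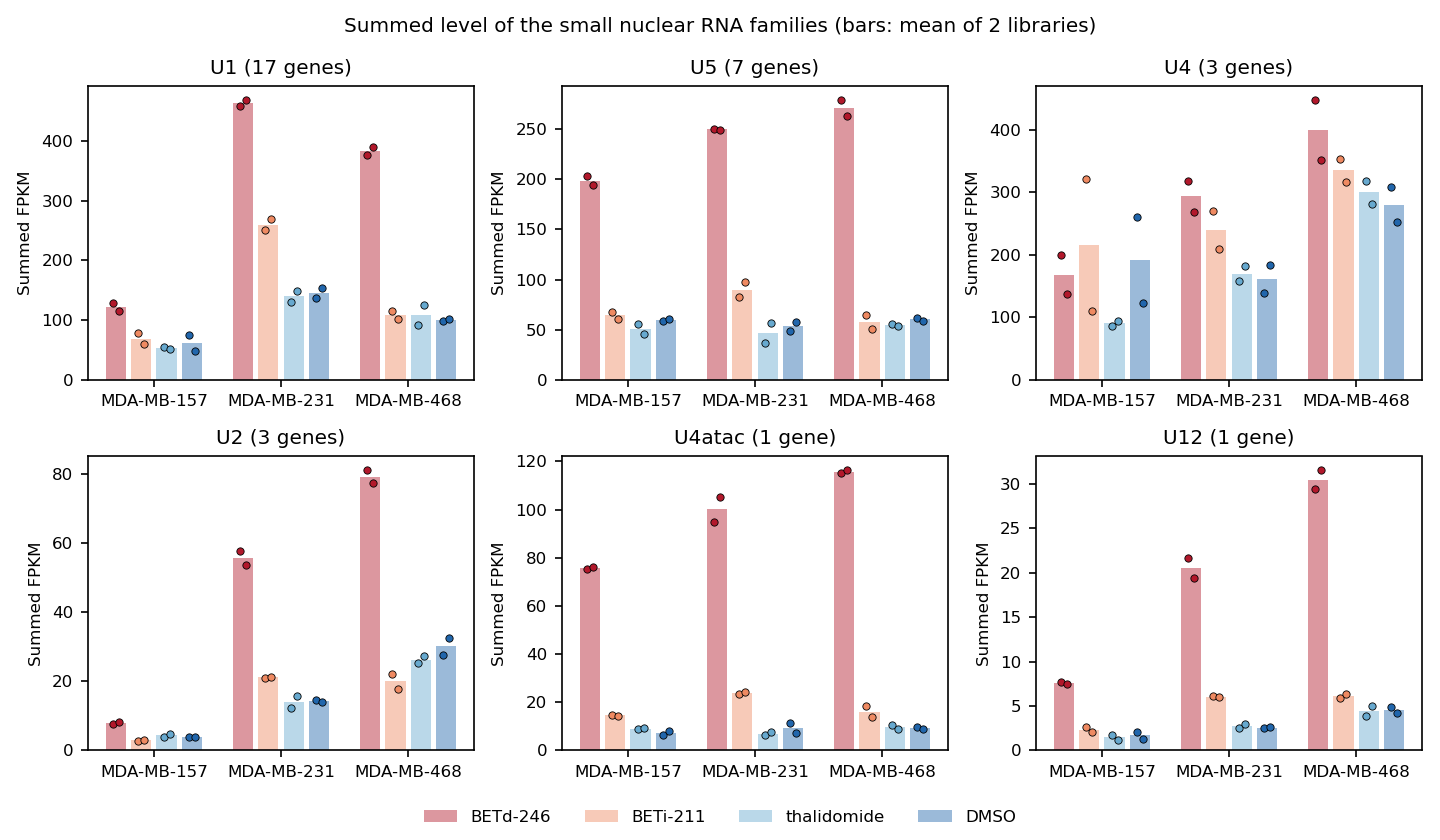
Summed FPKM of the members of 6 small nuclear RNA families in each library (points), with bars for the mean of the 2 libraries of a group, in the 3 lines. The U5 sum averaged 198.5, 249.6 and 270.8 FPKM with BETd-246 in the 3 lines, against 55.2, 50.0 and 57.6 FPKM in the controls, and in MDA-MB-157 the U4 points of BETd-246 lie within the range of the controls.

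The U4 genes RNU4-1 and RNU4-2 were the most abundant members. RNU4-2 had the highest FPKM of all 34 in 23 of the 24 libraries and RNU4-1 in the other. RNU4-1 had 65.3 and 45.1 FPKM with BETd-246 and 104 and 35 FPKM with BETi-211, against 25.7 and 29.6 FPKM with thalidomide and 72.6 and 36.5 FPKM with DMSO in MDA-MB-157. MDA-MB-231 libraries had 151 and 139 FPKM with BETd-246 and 103 and 85.9 FPKM with BETi-211, against 59 and 74.5 FPKM with thalidomide and 46.4 and 69.6 FPKM with DMSO. For MDA-MB-468 the values were 82.1 and 75 FPKM with BETd-246 and 65 and 53 FPKM with BETi-211, against 52.5 and 50.9 FPKM with thalidomide and 50.7 and 41.4 FPKM with DMSO. In MDA-MB-157 the BETi-211 replicate 1 and DMSO replicate 1 libraries were the highest and the BETd-246 libraries lay within the range of the controls, whereas in the other lines the BETd-246 libraries were above the controls. With BETd-246 RNU4-1 rose in MDA-MB-231, by 1.23 ± 0.33 (limma adjusted p = 0.00560, or 0.0505 without BETd-246 replicate 1). Its changes of 0.51 in MDA-MB-157 and 0.68 in MDA-MB-468 did not pass (limma adjusted p = 0.206 and 0.0926). In MDA-MB-468 the adjusted p was 0.0284 with median-of-ratios scaling and 0.00276 with the line fitted alone.

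RNU4-2 had 134 and 91.4 FPKM with BETd-246 and 215 and 72 FPKM with BETi-211, against 59.9 and 63.7 FPKM with thalidomide and 186 and 85.3 FPKM with DMSO in MDA-MB-157. It had 166 and 129 FPKM with BETd-246 and 162 and 121 FPKM with BETi-211, against 97.2 and 105 FPKM with thalidomide and 90.5 and 112 FPKM with DMSO in MDA-MB-231. MDA-MB-468 libraries had 365 and 275 FPKM with BETd-246 and 280.0 and 258 FPKM with BETi-211, against 262 and 223 FPKM with thalidomide and 252 and 204 FPKM with DMSO. Both BETd-246 libraries lay above the controls in the MDA-MB-231 and the MDA-MB-468 line and within their range in MDA-MB-157. The log2 changes with BETd-246 were 0.32, 0.54 and 0.43, and their 95% confidence intervals of -0.40 to 1.05, -0.19 to 1.26 and -0.29 to 1.16 all included 0 (limma adjusted p = 0.458, 0.212 and 0.305). Fitted alone, MDA-MB-231 gave an adjusted p of 0.0487 and MDA-MB-468 one of 0.0428.

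The ratio of RNU4-2 to RNU4-1 differed between lines. It was 2.02 to 2.57 over the libraries of MDA-MB-157, 0.924 to 1.95 over those of MDA-MB-231 and 3.67 to 4.98 over those of MDA-MB-468, with no overlap between lines. In MDA-MB-231 the lowest ratios, 1.10 and 0.924, were those of the BETd-246 libraries, against 1.65 and 1.40 with thalidomide and 1.95 and 1.6 with DMSO. The MDA-MB-157 ratios were 2.05 and 2.02 with BETd-246 and 2.08 and 2.06 with BETi-211, against 2.15 to 2.57 in the controls. The ratios of MDA-MB-468 were 4.44 and 3.67 with BETd-246 and 4.31 and 4.88 with BETi-211, against 4.38 to 4.98 in the controls, so that 1 BETd-246 library lay within the control range.

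**Figure D3:**
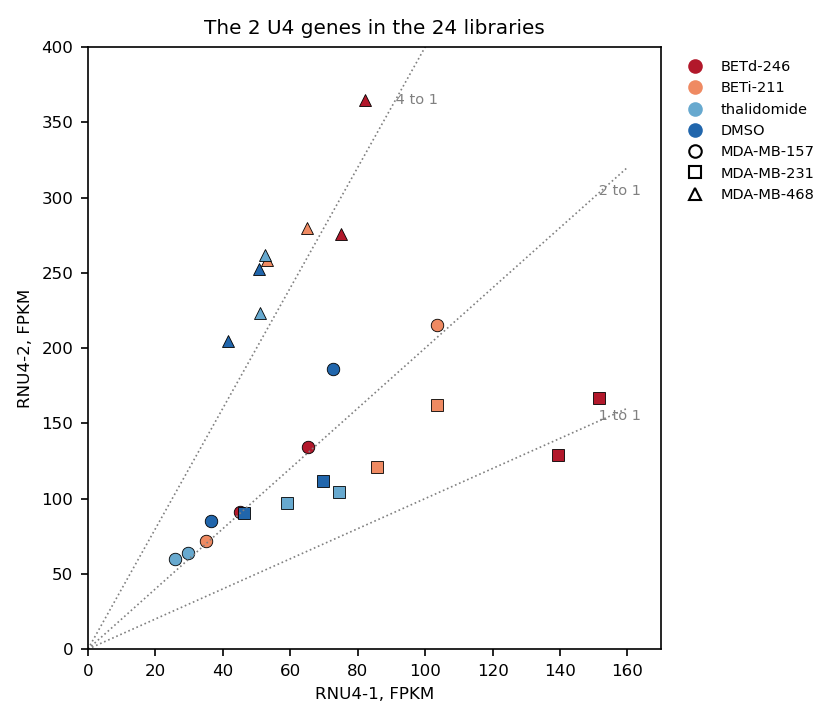
FPKM of RNU4-2 (vertical axis) against RNU4-1 (horizontal axis) in the 24 libraries, with color for the treatment, shape for the line and dotted lines for ratios of 1, 2 and 4. The 3 lines fall along separate ratios, and within MDA-MB-157 the libraries with 215 FPKM (BETi-211 replicate 1) and 186 FPKM (DMSO replicate 1) of RNU4-2 stand above the rest.

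Among the U1 genes, 9, 14 and 13 of 17 rose with BETd-246 in the 3 lines. These shares of 52.9%, 82.4% and 76.5% stand beside 19%, 14.8% and 20.1% of all genes called higher. They are RNVU1 variants, pseudogene copies and unnumbered copies, and no row carried the symbol of a canonical RNU1 gene. The summed U1 level was 128 and 115 FPKM with BETd-246 in MDA-MB-157, against 49.2 to 75.4 FPKM in the controls. In MDA-MB-231 it was 458 and 468 FPKM, against 130.1 to 154 FPKM, and in MDA-MB-468 377 and 389.9 FPKM, against 92.5 to 125 FPKM. All but 2 of the U1 members lie on chromosome 1, between positions 120850819 and 149636929. RNU1-85P on chromosome 17 and RNU1-88P on chromosome 6 are the exceptions.

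RNVU1-6 was the most abundant RNVU1 gene with BETd-246 in every line. MDA-MB-157 libraries had 13.1 and 11.7 FPKM with BETd-246 and 6.87 and 6.6 FPKM with BETi-211, against 6.6 and 4.29 FPKM with thalidomide and 6.4 and 3.12 FPKM with DMSO. The MDA-MB-231 values were 64.8 and 69.5 FPKM with BETd-246 and 29.4 and 34 FPKM with BETi-211, against 12.8 and 16.7 FPKM with thalidomide and 12.5 and 13.9 FPKM with DMSO. The MDA-MB-468 values were 87.2 and 102 FPKM with BETd-246 and 22.1 and 17.5 FPKM with BETi-211, against 15.5 and 18.3 FPKM with thalidomide and 15.4 and 12.7 FPKM with DMSO. The BETd-246 libraries were the highest of each line, and the BETi-211 libraries lay between them and the controls in MDA-MB-231. RNVU1-6 rose with BETd-246 by 1.18 ± 0.19, 2.19 ± 0.19 and 2.54 ± 0.19 (limma adjusted p = 9.20e-05, 7.14e-08 and 8.78e-09).

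RNVU1-15, RNVU1-19 and RNVU1-4 rose in all 3 lines as well. RNVU1-15 rose by 0.81 ± 0.15, 2.0 ± 0.15 and 2.21 ± 0.15, RNVU1-19 by 1.31 ± 0.22, 2.07 ± 0.22 and 1.91 ± 0.22, and RNVU1-4 by 0.87 ± 0.21, 2.43 ± 0.21 and 1.85 ± 0.21. Against DMSO alone the MDA-MB-157 change of RNVU1-15 was 0.42 (limma adjusted p = 0.0548), and without BETd-246 replicate 1 that of RNVU1-4 was 0.585 (adjusted p = 0.0729). RNVU1-3 rose in the MDA-MB-231 and the MDA-MB-468 line, by 0.81 ± 0.19 and 0.77 ± 0.19, and each call was lost without BETd-246 replicate 2 of that line (limma adjusted p = 0.0667 and 0.102). RNVU1-7, nearly identical to RNU1-1, stayed at 0.126 to 1.45 FPKM in the MDA-MB-157 and the MDA-MB-231 line. Its change of 0.48 ± 0.20 with BETd-246 in MDA-MB-231 did not pass, but it did without thalidomide replicate 2 or DMSO replicate 1 (limma adjusted p = 0.00856 and 0.0479) and with quantile, upper-quartile or median-of-ratios scaling (0.00616, 0.0323 and 0.0138). For MDA-MB-468 the values were 5.7 and 4.27 FPKM with BETd-246, against 3.01 and 2.77 FPKM with thalidomide and 2.62 and 1.96 FPKM with DMSO, a change of 0.74 ± 0.20 (limma adjusted p = 0.00497, or 0.0894 without BETd-246 replicate 1).

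The unnumbered copy U1 ENSG00000274210 had 43.5 and 40.1 FPKM with BETd-246, against 17.1 and 18.4 FPKM with thalidomide and 21.2 and 14.2 FPKM with DMSO in MDA-MB-157. It had 61.1 and 72.4 FPKM with BETd-246, against 15 and 18.2 FPKM with thalidomide and 17.4 and 16.4 FPKM with DMSO in MDA-MB-231. MDA-MB-468 libraries had 64.5 and 67 FPKM with BETd-246, against 11.5 and 16.3 FPKM with thalidomide and 15.5 and 13.9 FPKM with DMSO. The BETd-246 libraries exceeded every control in each line, with changes of 1.21 ± 0.14, 1.93 ± 0.14 and 2.14 ± 0.14 (limma adjusted p = 2.89e-06, 8.77e-09 and 1.84e-09). U1 ENSG00000206828 also rose in each line, by 0.98 ± 0.22, 2.11 ± 0.22 and 1.61 ± 0.22. U1 ENSG00000270722, within 2 edits of another U1 gene, was the highest U1 row of MDA-MB-231 in all 8 of its libraries, at 104 and 95.7 FPKM with BETd-246, against 54.8 to 65.3 FPKM in the controls. Its changes of 0.36 ± 0.22, 0.76 ± 0.22 and 0.69 ± 0.22 passed in the MDA-MB-231 and MDA-MB-468 lines, and neither call held without BETd-246 replicate 1 of its line (limma adjusted p = 0.0751 and 0.220). Without DMSO replicate 1 the MDA-MB-157 change passed too (adjusted p = 0.0225).

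Several U1 copies were near 0 in 1 or 2 of the lines. Those outside the 5 largest average rises are given here so that every member is accounted for, and were named after their values were seen. U1 ENSG00000277918 had 39.8 and 38.8 FPKM with BETd-246 and 16.7 and 13.5 FPKM with BETi-211, against 4.98 and 6.76 FPKM with thalidomide and 6.4 and 6.32 FPKM with DMSO in MDA-MB-231. It did not exceed 0.492 FPKM in any library of the other lines. RNU1-122P had 18.2 and 18.2 FPKM with BETd-246, against 2.71 and 3.79 FPKM with thalidomide and 3.61 and 2.87 FPKM with DMSO in MDA-MB-231. It had 5.22 and 3.68 FPKM with BETd-246, against 1.93 and 0.803 FPKM with thalidomide and 1.87 and 1.24 FPKM with DMSO in MDA-MB-157 and stayed at or below 0.132 FPKM in MDA-MB-468. Where these copies were detected, the BETd-246 libraries lay above the controls. U1 ENSG00000277918 rose by 2.51 ± 0.14 in MDA-MB-231 (limma adjusted p = 1.98e-10), and RNU1-122P by 1.16 ± 0.16 in MDA-MB-157 and 2.19 ± 0.16 in MDA-MB-231 (adjusted p = 2.03e-05 and 1.01e-08). RNU1-122P lies in an intron of the non-coding gene LINC01138 on the same strand, whose own change was 0.07, 0.02 and 0.00 in the 3 lines and did not pass.

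RNU1-120P was listed at 0 in all 8 libraries of MDA-MB-157 and rose in MDA-MB-231 by 1.04 ± 0.19 and in the MDA-MB-468 line by 1.55 ± 0.19. RNU1-85P was below 1 FPKM in the MDA-MB-157 and the MDA-MB-231 line and had 23.3 and 19.7 FPKM with BETd-246, against 7.02 and 13.5 FPKM with thalidomide and 10.1 and 11.9 FPKM with DMSO in MDA-MB-468, a rise of 0.98 ± 0.17 (limma adjusted p = 0.000149). RNU1-88P showed the opposite layout, with rises of 1.4 ± 0.19 in MDA-MB-157 and 1.42 ± 0.19 in MDA-MB-231 and no value above 0.663 FPKM in MDA-MB-468. RNU1-13P rose by 1.13 ± 0.16 and 1.37 ± 0.16 in the MDA-MB-231 and the MDA-MB-468 line. U1 ENSG00000274428 rose by 0.95 ± 0.20 and 1.25 ± 0.20 in the MDA-MB-157 and the MDA-MB-468 line and was at most 0.277 FPKM in MDA-MB-231. U1 ENSG00000278099 passed in MDA-MB-231, with 0.38 ± 0.12 (limma adjusted p = 0.0164), and not without either BETd-246 library or DMSO replicate 2 (adjusted p = 0.0926, 0.0711 and 0.0540). In MDA-MB-468 it passed without thalidomide replicate 1 or DMSO replicate 2, and RNU1-13P passed in MDA-MB-157 without thalidomide replicate 1 or DMSO replicate 1.

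**Figure D4:**
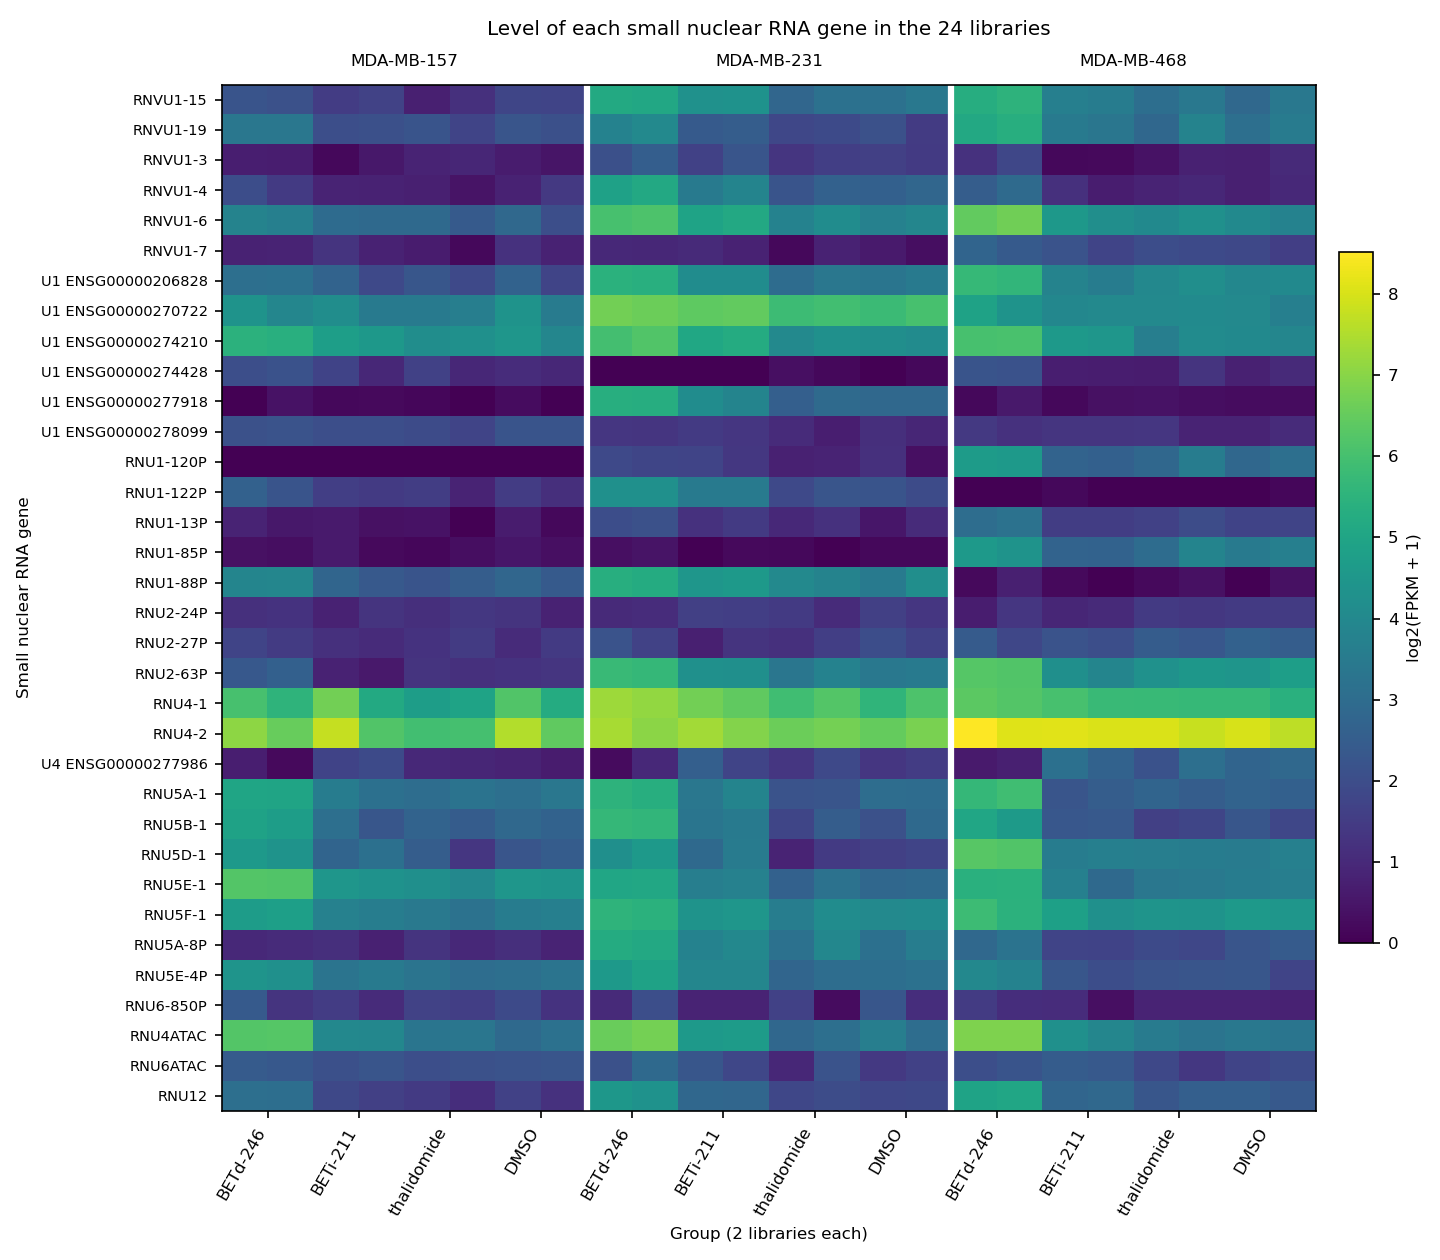
The level of each of the 34 genes in the 24 libraries as log2(FPKM + 1), from 0 (dark) to above 8 (yellow), with the libraries ordered by line and, within a line, by treatment. The BETd-246 columns are the brightest of each line for RNU4ATAC, RNU12 and the named U5 genes, and rows such as U1 ENSG00000277918, RNU1-85P and RNU1-120P are dark in 1 or 2 of the 3 lines.

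The only U2 rows were 3 pseudogene copies, and they diverged. RNU2-63P, 77.3% identical to the U2 gene RNU2-1 and without the Sm letters, had 4.05 and 5.05 FPKM with BETd-246 and 0.762 and 0.494 FPKM with BETi-211, against 1.41 and 1.25 FPKM with thalidomide and 1.36 and 1.5 FPKM with DMSO in MDA-MB-157. For MDA-MB-231 the values were 53 and 50.3 FPKM with BETd-246 and 18.1 and 17.8 FPKM with BETi-211, against 9.09 and 12.6 FPKM with thalidomide and 9.53 and 10.4 FPKM with DMSO. The MDA-MB-468 values were 75.8 and 73.1 FPKM with BETd-246 and 17.8 and 13.7 FPKM with BETi-211, against 19 and 21.6 FPKM with thalidomide and 20.6 and 26.2 FPKM with DMSO. The BETd-246 libraries were the highest of each line, whereas the BETi-211 libraries were the lowest in the MDA-MB-157 and the MDA-MB-468 line and above the controls in MDA-MB-231. RNU2-63P rose with BETd-246 by 1.22 ± 0.13, 2.22 ± 0.13 and 1.73 ± 0.13 (limma adjusted p = 5.11e-07, 2.63e-10 and 4.76e-09). RNU2-27P did not pass with BETd-246 in any line, except as lower in MDA-MB-468 without BETd-246 replicate 1 (limma adjusted p = 0.0312). RNU2-24P passed as lower in MDA-MB-468 with -0.43 ± 0.18 (limma adjusted p = 0.0488), a call that was lost without any 1 of 5 libraries of the line, BETd-246 replicate 1 or any control (adjusted p between 0.0737 and 0.735).

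The row U4 ENSG00000277986 fell with BETd-246 in the MDA-MB-231 and MDA-MB-468 lines. This copy, 66.4% identical to RNU4-2, lies in an exon of PTMA, the gene of prothymosin alpha, on the same strand, at chr2:231711525-231711647 (plus strand). For MDA-MB-468 the values were 0.537 and 0.696 FPKM with BETd-246 and 7.75 and 5.41 FPKM with BETi-211, against 3.46 and 7.67 FPKM with thalidomide and 5.63 and 6.31 FPKM with DMSO. MDA-MB-231 libraries had 0.20 and 0.991 FPKM with BETd-246 and 4.98 and 2.38 FPKM with BETi-211, against 1.52 and 2.71 FPKM with thalidomide and 1.54 and 1.82 FPKM with DMSO. The MDA-MB-157 values were 0.652 and 0.164 FPKM with BETd-246 and 2.24 and 2.76 FPKM with BETi-211, against 0.965 and 0.892 FPKM with thalidomide and 0.78 and 0.551 FPKM with DMSO. The BETd-246 libraries were below every control in the MDA-MB-231 and the MDA-MB-468 line, with changes of -0.89 ± 0.28 (limma adjusted p = 0.0143, or 0.250 without BETd-246 replicate 1) and -2.03 ± 0.28 (adjusted p = 1.10e-05). PTMA averaged 421, 513 and 1290.0 FPKM with BETd-246 in the 3 lines, against 380.0, 433 and 1130.0 FPKM in the controls, and rose in the MDA-MB-231 and MDA-MB-468 lines by 0.25 and 0.20 (limma adjusted p = 0.00388 and 0.0138). The U6 copy RNU6-850P, on the opposite strand of an MSH5 intron, had values of 0.226 to 4.36 FPKM and did not pass in any comparison with BETd-246 or BETi-211.

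With BETi-211 at 1000 nM, fewer members changed outside MDA-MB-231. In MDA-MB-157, 5 rose and 1 fell, against 14.9% of all genes called higher and 30.9% lower. In MDA-MB-231, 21 rose and 1 fell, against 18.7% and 31.4%, and in MDA-MB-468, 5 rose and 4 fell, against 21.3% and 32.5%. The shares of members that rose were 14.7%, 61.8% and 14.7% in the 3 lines, above that of all genes in MDA-MB-231 alone. The median change of the members was 0.15, 0.66 and 0.03 in the 3 lines. The 5 risen members of MDA-MB-157 became 3 without BETi-211 replicate 1, thalidomide replicate 2 or DMSO replicate 2. In MDA-MB-468 the 5 became 3 without BETi-211 replicate 1 or DMSO replicate 1 and 2 without BETi-211 replicate 2. Under the 4 other scalings, 5 to 7, 20 to 26 and 4 to 6 members rose. The share of all genes called higher then ran from 11.2% to 27.8%, from 13.2% to 28.7% and from 14.1% to 32.6%.

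RNU4ATAC, RNU12 and U1 ENSG00000274210 rose with BETi-211 in all 3 lines. RNU4ATAC rose by 0.79 ± 0.14, 1.48 ± 0.14 and 0.69 ± 0.14 (limma adjusted p = 0.000173, 1.55e-07 and 0.000467). RNU12 rose by 0.37 ± 0.12, 0.96 ± 0.12 and 0.38 ± 0.12. The RNU12 call in MDA-MB-157 was lost without BETi-211 replicate 1, thalidomide replicate 2 or DMSO replicate 2 (adjusted p = 0.206, 0.0610 and 0.0591), and that in MDA-MB-468 without BETi-211 replicate 2 (adjusted p = 0.0935). U1 ENSG00000274210 rose by 0.44 ± 0.14, 1.0 ± 0.14 and 0.59 ± 0.14, and its MDA-MB-157 call was lost without BETi-211 replicate 1 or DMSO replicate 2 (adjusted p = 0.211 and 0.0668).

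With BETi-211 most U5 genes rose in MDA-MB-231. There 6 of 7 rose, or 85.7%, against 18.7% of all genes. Among them were RNU5D-1 at 1.81 ± 0.25, RNU5B-1 at 1.09 ± 0.24 and RNU5A-1 at 0.99 ± 0.14 (limma adjusted p = 1.71e-05, 0.00136 and 1.49e-05). In MDA-MB-157, RNU5D-1 alone passed, with 0.79 ± 0.25, and not without BETi-211 replicate 2 or thalidomide replicate 2 (limma adjusted p = 0.188 and 0.0546). In MDA-MB-468, 0 of 7 passed with limma, 0 at an unadjusted p under 0.05, and the RNU5D-1 change was 0.00 with a 95% confidence interval of -0.54 to 0.54. Without BETi-211 replicate 1, RNU5E-1 passed as lower there, at -0.61 (adjusted p = 0.00246). RNU2-63P fell with BETi-211 in the MDA-MB-157 and the MDA-MB-468 line, with changes of -0.55 ± 0.13 and -0.45 ± 0.13, and rose in MDA-MB-231, by 0.74 ± 0.13 (limma adjusted p = 0.00168, 0.00606 and 0.000108). The MDA-MB-468 fall was lost without BETi-211 replicate 2 (adjusted p = 0.160). The copy U4 ENSG00000277986, whose falls with BETd-246 were in the other lines, rose with BETi-211 in MDA-MB-157 by 0.96 ± 0.28 (limma adjusted p = 0.00859, or 0.0815 without BETi-211 replicate 2). In the same line RNU4-1 and RNU4-2 had changes of 0.66 ± 0.33 and 0.49 ± 0.34, which did not pass. Without BETi-211 replicate 2 they passed, at 1.43 and 1.27 (limma adjusted p = 0.00125 and 0.00513), and without DMSO replicate 1 RNU4-1 did, at 0.91 (adjusted p = 0.0331).

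Of the U1 genes, RNU1-122P, U1 ENSG00000277918, RNVU1-15, RNVU1-6 and RNVU1-4 rose with BETi-211 in MDA-MB-231, by 1.41 ± 0.16, 1.18 ± 0.14, 1.17 ± 0.15, 1.13 ± 0.19 and 1.12 ± 0.21 (limma adjusted p = 2.18e-06, 2.35e-06, 5.19e-06, 0.000120 and 0.000251). U1 ENSG00000206828 rose there by 0.84 ± 0.22 and the U5 copy RNU5E-4P by 0.90 ± 0.13. In MDA-MB-157, RNVU1-6 passed as higher without thalidomide replicate 1 or DMSO replicate 1 (adjusted p = 0.0435 and 0.00548), and RNU1-122P without thalidomide replicate 1 (0.0218).

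Several other calls with BETi-211 rested on single libraries. In MDA-MB-468, RNU6ATAC and RNVU1-15 rose by 0.72 ± 0.26 and 0.43 ± 0.15, while RNU1-85P, RNVU1-3 and RNU2-24P fell, with changes of -0.81 ± 0.17, -0.55 ± 0.19 and -0.47 ± 0.18 (limma adjusted p = 0.0304, 0.0233, 0.000749, 0.0213 and 0.0322). The RNU1-85P call held without each library of the line in turn. The calls of RNU6ATAC, RNVU1-15, RNVU1-3 and RNU2-24P were each lost without BETi-211 replicate 1 (adjusted p = 0.142, 0.152, 0.0994 and 0.170), without BETi-211 replicate 2 (0.0942, 0.0581, 0.0854 and 0.0815) and without at least 1 of the control libraries. In MDA-MB-231, RNU2-27P fell, with -0.58 ± 0.20 (limma adjusted p = 0.0245), and not without BETi-211 replicate 1, thalidomide replicate 2 or DMSO replicate 1 (adjusted p = 0.336, 0.0635 and 0.0786). Of the rises there, those of RNU5F-1, RNVU1-19 and RNU1-13P were lost without either BETi-211 library (adjusted p between 0.0508 and 0.302) or without thalidomide replicate 1 (adjusted p = 0.0570, 0.0520 and 0.115). RNVU1-19 was also lost without DMSO replicate 2 and RNU1-13P without DMSO replicate 1 (adjusted p = 0.0996 and 0.175). Those of RNU1-120P and U1 ENSG00000278099 were lost without replicate 1, and that of RNU1-88P without replicate 2 (limma adjusted p = 0.0647, 0.0717 and 0.0781). Conversely, RNVU1-3, RNVU1-7, RNU6ATAC, RNU5A-8P and U4 ENSG00000277986 passed as higher in MDA-MB-231 without thalidomide replicate 2 (limma adjusted p = 0.0444, 0.0141, 0.00261, 0.00345 and 0.0286). RNVU1-3 also passed there without BETi-211 replicate 1, U4 ENSG00000277986 without BETi-211 replicate 2 and RNU5A-8P without DMSO replicate 2 (adjusted p = 0.0108, 0.0165 and 0.0306). In MDA-MB-468, U1 ENSG00000278099 passed as higher without thalidomide replicate 1 or DMSO replicate 2, and RNU1-120P as lower without thalidomide replicate 1 (adjusted p = 0.00358, 0.0426 and 0.00750).

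Set side by side, the members stood higher with BETd-246 at 100 nM than with BETi-211 at 1000 nM, and these doses differ, so that compound and dose cannot be told apart. In MDA-MB-157, 18 members were higher and 1 lower with BETd-246 than with BETi-211, against 24.2% and 22.3% of all genes. The counts were 21 and 2 in MDA-MB-231, against 17.8% and 23.9%, and 23 and 1 in MDA-MB-468, against 20.1% and 23.2%. RNU4ATAC was higher with BETd-246 by 2.3 ± 0.16, 2.02 ± 0.16 and 2.78 ± 0.16 on the log2 scale, and RNU5A-1 by 1.62 ± 0.16, 1.82 ± 0.16 and 3.41 ± 0.16. The row that was lower in every line was U4 ENSG00000277986. RNU4-1 and RNU4-2 did not pass in any line, and the 95% confidence intervals of the RNU4-2 difference, -1.01 to 0.67, -0.78 to 0.90 and -0.60 to 1.07, leave room for differences of either sign. The comparisons of both compounds with controls share the control libraries of a line.

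Thalidomide alone did not move a member past the threshold. With limma, 0 of 34 passed in each line against DMSO, where 0.184%, 0.00% and 0.00% of all genes did, and 6, 2 and 1 members had an unadjusted p under 0.05. The lowest adjusted p of a member was that of RNVU1-15 in MDA-MB-157, which had 0.678 and 1.25 FPKM with thalidomide, against 2.41 and 2.32 FPKM with DMSO (-0.79 ± 0.17, limma adjusted p = 0.0782). In MDA-MB-231, RNU5A-1 had 3.48 and 3.69 FPKM with thalidomide, against 7.25 and 7.07 FPKM with DMSO, so that these control pairs did not overlap (-0.83 ± 0.16, adjusted p = 0.262). With a library left out, 1 member passed in MDA-MB-157 without DMSO replicate 1 and 1 in MDA-MB-231 without thalidomide replicate 2.

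The change with BETd-246 on the log2(FPKM + 1) scale differed between lines for part of the members. Between MDA-MB-157 and MDA-MB-231 it differed for 15 of 34, lower in MDA-MB-157 for 14 and higher for 1, where 11.2% of all genes passed. Between MDA-MB-157 and MDA-MB-468 it differed for 13, with 10 lower and 3 higher in MDA-MB-157, against 13.1% of all genes. Between MDA-MB-468 and MDA-MB-231 it differed for 4, or 11.8% of the members, against 13.3%. A member below 1 FPKM in every library of a line has a change near 0 there on this scale, whatever its change elsewhere. Such members made up 4 of the 15, 5 of the 13 and all 4 of the last count, and for them the test does not compare responses. Of the remaining 11 and 8, all 11 and 7 of the 8 were lower in MDA-MB-157.

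These counts depended on the pseudocount, since a value of 1 compresses the changes of low genes. With a pseudocount of 0.1 the 15 became 6 and the 13 became 8, and with thalidomide alone as control the 15 became 9. RNU5A-1, RNU5A-8P, RNVU1-15 and U1 ENSG00000274210 had a lower change in MDA-MB-157 than in both other lines with either pseudocount, whereas RNU12, RNVU1-4 and RNVU1-6 did so only with a pseudocount of 1 in at least 1 of the 2 comparisons. The 15 were 8 or 7 without BETd-246 replicate 1 or 2 of MDA-MB-157 and 8 without BETd-246 replicate 2 of MDA-MB-231, and the 4 became 9 without thalidomide replicate 2 of MDA-MB-231. For RNU4ATAC the difference in the BETd-246 change between the lines did not pass.

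The change with BETi-211 was higher in MDA-MB-231 for part of the members. It differed for 11 members between MDA-MB-157 and MDA-MB-231, all lower in MDA-MB-157, where 16.5% of all genes passed, and for 18 between MDA-MB-468 and MDA-MB-231, all lower in MDA-MB-468, against 21.9%. Of these, 2 of the 11 and 4 of the 18 were below 1 FPKM in every library of a compared line. Between MDA-MB-157 and MDA-MB-468 1 member passed, RNU1-85P, which was below 1 FPKM throughout MDA-MB-157, against 21.6% of all genes. With a pseudocount of 0.1 the 11, 18 and 1 became 5, 10 and 0. With DMSO alone as control the 11 became 6 and the 18 became 11, and with thalidomide alone the 11 became 7. RNU4ATAC, RNU5A-1, RNU5E-4P and RNU2-63P were lower in both other lines than in MDA-MB-231 with either pseudocount. The 11 became 4 without BETi-211 replicate 2 of MDA-MB-231, 7 without BETi-211 replicate 2 of MDA-MB-157 and 18 without thalidomide replicate 2 of MDA-MB-231. The 18 became 10 without BETi-211 replicate 2 of either line. The single member became 0 without BETi-211 replicate 1 of MDA-MB-157 or replicate 2 of MDA-MB-468, 3 without BETi-211 replicate 2 of MDA-MB-157, and 2 without thalidomide replicate 1 of MDA-MB-157 or BETi-211 replicate 1 of MDA-MB-468.

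The lines also differed in the levels of the members in the controls. There, 23 of the 34 members differed between MDA-MB-157 and MDA-MB-231, 6 of them higher in the first-named line. Between MDA-MB-157 and MDA-MB-468 25 differed, 9 of them higher in the first-named line, and between MDA-MB-468 and MDA-MB-231 24 differed, 15 of them higher in the first-named line. Between these lines 87.4%, 88.0% and 86.2% of all genes passed, so the share of members is below that of the table. Below 1 FPKM in every library were 5 members in MDA-MB-157 (RNU1-120P, RNU1-13P, RNU1-85P, RNVU1-3 and U1 ENSG00000277918), 2 in MDA-MB-231 (RNU1-85P and U1 ENSG00000274428) and 3 in MDA-MB-468 (RNU1-122P, RNU1-88P and U1 ENSG00000277918). RNU5E-1 was highest in MDA-MB-157 controls, at 14.7 to 21.1 FPKM, against 5.30 to 8.19 FPKM in MDA-MB-231 and 9.42 to 11.4 FPKM in MDA-MB-468 controls. RNU5D-1 was highest in MDA-MB-468 controls, at 10.7 to 12.1 FPKM, against 1.54 to 4.67 FPKM in MDA-MB-157 and 0.820 to 2.36 FPKM in MDA-MB-231. Neither range overlapped those of the other lines. The control levels of RNU4ATAC overlapped between the lines, at 6.45 to 9.26, 6.22 to 11.5 and 8.78 to 10.7 FPKM, and did not pass in any pair.

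Protein genes of small nuclear RNA transcription and maturation are set here against the 32.4%, 33.3% and 33.7% of all genes called lower with BETd-246 in the 3 lines and the 19%, 14.8% and 20.1% called higher. These lists were chosen with earlier results of these data known. Among 17 genes of small nuclear RNA transcription, 14, 13 and 13 fell, or 82.4%, 76.5% and 76.5%, and at most 1 rose in the 3 lines. Averaged over the lines, the change was -1.99 ± 0.06 on the log2 scale for BRF2, the polymerase III initiation factor at U6 genes, -1.40 ± 0.02 for COIL, the Cajal body scaffold coilin, -1.31 ± 0.03 for USPL1, another Cajal body protein, and -0.67 ± 0.02 for ICE1 of the little elongation complex (all with a limma adjusted p of 1.53e-13 or less). Of 17 Integrator and 3′ end genes, 9, 7 and 8 fell, or 52.9%, 41.2% and 47.1%, and 2, 1 and 4 rose, with NABP1 at -1.89 ± 0.04, INTS5 at -1.18 ± 0.02 and INTS6 at -1.09 ± 0.03. Of 18 genes of capping, export and Sm ring assembly, 10, 11 and 9 fell, or 55.6%, 61.1% and 50%, and at most 3 rose. Among them were DDX20, the helicase of the SMN complex, at -1.78 ± 0.03, TGS1, which hypermethylates the cap, at -0.97 ± 0.02, and the export adaptor PHAX at -0.55 ± 0.03. Falls were also common with BETi-211, at 64.7%, 70.6% and 52.9% of the transcription genes and 58.8%, 52.9% and 47.1% of the Integrator genes. For capping, export and Sm ring assembly the shares were 55.6%, 66.7% and 61.1%, against 30.9%, 31.4% and 32.5% of all genes.

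Proteins of the mature particles moved in both directions. Of 17 Sm and LSm ring genes, 6, 7 and 7 rose, or 35.3%, 41.2% and 41.2%, and 2, 1 and 2 fell, with LSM4 at 0.26 ± 0.03, LSM7 at 0.27 ± 0.04 and LSM11, a protein of the histone-processing U7 particle, at -1.17 ± 0.02. Of 28 proteins of the U1, U2, U4/U6 and U5 particles, 3, 7 and 8 rose, or 10.7%, 25% and 28.6%, against 19%, 14.8% and 20.1% of all genes. In each line 6 of them fell, or 21.4%, a share below that of all genes, with the U4/U6 recycling factor SART3 at -0.45 ± 0.02. Of 9 minor spliceosome proteins, 6 fell in each line, or 66.7%, while 3, 1 and 2 rose, or 33.3%, 11.1% and 22.2%. PDCD7 was at -0.97 ± 0.02 and SNRNP35 at -0.82 ± 0.04, both of the U11/U12 particle. Of 6 U6 maturation genes, 3, 3 and 4 fell, or 50%, 50% and 66.7%, and the others did not pass, with MEPCE, which caps U6 and 7SK, at -1.61 ± 0.02. The median changes of these lists lay between -0.40 and 0.19 in the 3 lines, against -0.05 to -0.03 for all genes.

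Other classes of short RNA had smaller median changes. Of 9 other short RNAs made by polymerase III, 4, 1 and 2 rose with BETd-246, or 44.4%, 11.1% and 22.2%, and the others did not pass. Of all genes, 19%, 14.8% and 20.1% were called higher. Averaged over the lines, 7SK (RN7SK) changed by 0.37 ± 0.09 and the RNase P RNA RPPH1 by 0.34 ± 0.08. Of 158 small nucleolar RNA genes, which guide modification of ribosomal RNA, 2, 3 and 2 rose and 34, 39 and 47 fell with BETd-246. The shares that fell, 21.5%, 24.7% and 29.7%, were below those of all genes called lower, as were the shares that rose, 1.27%, 1.90% and 1.27%, beside those called higher, with medians of -0.24, -0.22 and -0.34. Of 14 small Cajal body RNA genes, which guide modification of the small nuclear RNAs themselves, 4 rose in each line, or 28.6%. The others did not pass, and the medians were 0.22, 0.25 and 0.25. With BETi-211, 18, 20 and 15 small nucleolar RNA genes rose, or 11.4%, 12.7% and 9.49% against 14.9%, 18.7% and 21.3% of all genes, and 3, 5 and 3 fell. These classes share the short size of the small nuclear RNAs, and whether size selection differed between treatments was not tested.

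**Figure D5:**
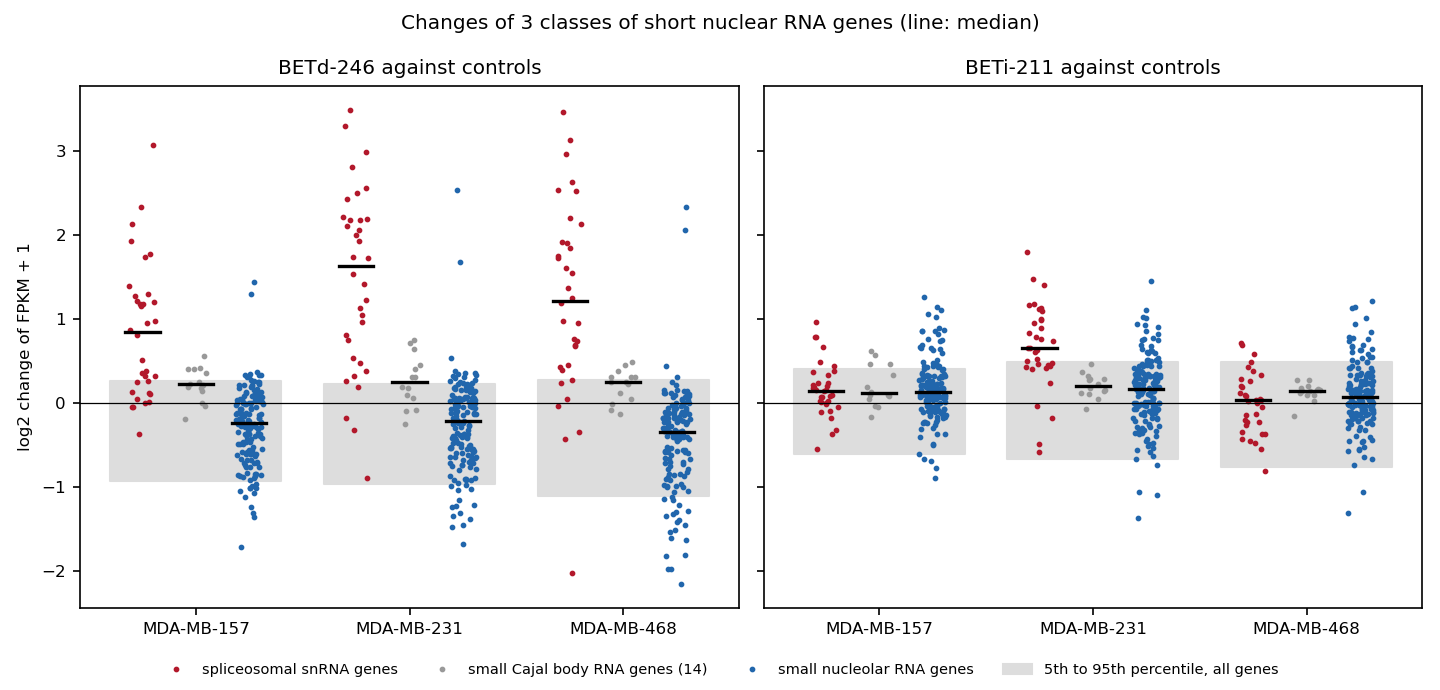
The log2 change of FPKM + 1 of 34 spliceosomal small nuclear RNA genes, 14 small Cajal body RNA genes and 158 small nucleolar RNA genes with BETd-246 (left) and BETi-211 (right) in the 3 lines, with a line at each median and a grey band from the 5th to the 95th percentile of all genes. With BETd-246 the small nuclear RNA medians, 0.84, 1.64 and 1.22, lie above the band, whose upper edge is at 0.26, 0.22 and 0.28, and the small nucleolar RNA medians lie below 0.

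In the libraries themselves, the summed FPKM of the table was 454289 to 534179 and replicate libraries correlated at 0.992 to 0.998 on the log2 scale across genes. The median FPKM of a library was lower with BETd-246, at 7.0 to 8.56, than in the controls, at 8.57 to 10.1, and the part of this in the members' values was not tested. Small nuclear RNA genes made up 0.107% to 0.250% of the summed FPKM with BETd-246, against 0.0446% to 0.103% in the controls. ERBB2 was at 11.6 to 19.2 FPKM over the controls. EPCAM, CDH1 and the basal keratin KRT5 were abundant in MDA-MB-468 and low in the other lines, where the mesenchymal marker VIM was high. The epithelial keratin KRT18 was at 298 to 308 FPKM in MDA-MB-157 controls and at most at 232 FPKM in MDA-MB-231 controls. The monocyte marker CD14 and the fibroblast collagen COL1A1 stood at 50.9 to 59.8 and 21.8 to 26.5 FPKM in MDA-MB-157 controls and at most at 0.73 and 1.53 FPKM in those of the other lines. The estrogen and progesterone receptor genes, PTPRC and PECAM1 had no row among the 14114 genes. All 34 members reached the lowest maximum in the table, a group mean of 1.22 FPKM, in a control group alone. The filter behind the table is not stated, so what their presence rested on is unknown.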

How the data were processed

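The authors deposited one table of FPKM values, with 24 library columns and 14114 genes. The unit was inferred from the values, while its program, annotation and filter are not stated in the sources. Libraries were unstranded and random-primed after removal of ribosomal RNA from total RNA, per the labels' protocols. Bowtie 0.12.8, bcl2fastq 2.17.1.14 and the build GRCh38.p5 are named in the submitters' processing notes. Sequence depth is therefore unknown.

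Two-sided tests used limma 3.58.1, run in R 4.3.3, on the log2(FPKM + 1) scale. The 12 groups were coefficients with a variance trend and 12 residual degrees of freedom, and p-values were Benjamini-Hochberg adjusted over all 14114 genes, with a call at an adjusted p under 0.05. A compound was set against its line's controls, DMSO and thalidomide weighted equally. Differences of the BETi-211 effect between lines and averages over lines were added to the planned tests. Low values were not filtered. A fold change on this scale understates the change of low genes. The procedure was tested on simulated data.

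The members and lists were chosen with earlier results of these data known. The text names every member with a functional symbol, the 5 copies with the largest called average rise with BETd-246 and those called lower, from each list up to 4 genes by smallest adjusted p, and genes that overlap a named copy. Other members are named so that all 34 are accounted for. Alternatives were 4 scalings between libraries (quantile, column total, upper quartile and median of ratios), a pseudocount of 0.1, filters at 1 and at 5 FPKM (the first removed 0 genes), no variance trend, a replicate block, DMSO or thalidomide alone as control, each line alone, each library left out and, chosen after seeing the data, members more than 5 edits from any other annotated small nuclear RNA. Sequences were compared with edlib 1.3.9.post1 and annotated from GENCODE 29 on GRCh38. Some sequences and an overlapping gene are not reported here.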

Additional observations from a re-analysis of the deposited data

Results flagged for a closer look

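The responses of the small nuclear RNA genes differed between lines in tests of the difference itself, with limma and adjusted p-values over all genes. All values are differences of log2 changes against controls, the first-named line minus the second. Members below 1 FPKM throughout a line have a change near 0 there on the log2(FPKM + 1) scale.

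For BETd-246, 15 of 34 members (44.1%) differed between MDA-MB-157 and MDA-MB-231, against 11.2% of all genes. Among U5 and minor spliceosome genes the difference was -1.03 for RNU5A-1, -1.16 for RNU5B-1 and -0.82 for RNU12. Among U1 genes it was -1.02 for RNVU1-6, -1.19 for RNVU1-15, -1.56 for RNVU1-4, -1.13 for U1 ENSG00000206828, -0.72 for U1 ENSG00000274210 and -1.02 for RNU1-122P, and it was -1.0 for RNU2-63P. Of the members named for this pair, RNU5A-1, RNVU1-15 and U1 ENSG00000274210 also passed with a pseudocount of 0.1. The others named did not (limma adjusted p between 0.0711 and 0.346). Between MDA-MB-157 and MDA-MB-468, 13 members (38.2%) differed, against 13.1%. The values were -1.36 for RNU5A-1, -0.78 for RNU12, -1.37 for RNVU1-6, -1.39 for RNVU1-15, -0.98 for RNVU1-4 and -0.93 for U1 ENSG00000274210. They were positive for U4 ENSG00000277986 at 1.66 and for RNU1-122P at 1.20. RNU1-122P was below 1 FPKM throughout MDA-MB-468, so its value does not compare responses. With a pseudocount of 0.1, RNU12, RNVU1-4 and U4 ENSG00000277986 did not pass between MDA-MB-157 and MDA-MB-468 (limma adjusted p = 0.197, 0.147 and 0.0795). Between MDA-MB-468 and MDA-MB-231, 4 members (11.8%) differed, against 13.3% of all genes. Each was below 1 FPKM throughout a compared line, among them RNU1-122P at -2.22, in MDA-MB-468.

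For BETi-211, 11 members (32.4%) differed between MDA-MB-157 and MDA-MB-231, against 16.5% of all genes. The values were -0.70 for RNU4ATAC, -0.58 for RNU12, -0.83 for RNU5A-1, -1.08 for RNU5B-1, -0.69 for RNU5E-4P, -0.82 for RNVU1-3, -0.93 for RNVU1-15, -1.16 for RNVU1-4, -1.16 for RNU1-122P and -1.29 for RNU2-63P. Of these, RNVU1-3 was below 1 FPKM throughout MDA-MB-157. RNU12, RNU5B-1, RNVU1-15, RNVU1-4 and RNU1-122P did not pass with a pseudocount of 0.1 (limma adjusted p = 0.0914, 0.0522, 0.0519, 0.0833 and 0.123). Between MDA-MB-157 and MDA-MB-468, 1 member (2.94%) differed, against 21.6%. Between MDA-MB-468 and MDA-MB-231, 18 members (52.9%) differed, against 21.9%. The U5 and minor spliceosome values were -0.79 for RNU4ATAC, -0.57 for RNU12, -1.26 for RNU5A-1, -1.80 for RNU5D-1, -0.99 for RNU5E-1 and -0.88 for RNU5E-4P. The U1 and U2 values were -1.0 for RNVU1-3, -0.79 for RNVU1-6, -0.75 for RNVU1-15, -1.08 for RNVU1-4, -1.18 for U1 ENSG00000206828, -1.36 for RNU1-122P and -1.19 for RNU2-63P. Of these, RNU1-122P was below 1 FPKM throughout MDA-MB-468. For this pair RNVU1-6, RNVU1-15, RNVU1-4 and RNU1-122P did not pass with a pseudocount of 0.1 (limma adjusted p = 0.0775, 0.0545, 0.0791 and 0.0841).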

How the results depend on the processing

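Leaving out each library in turn, 17 to 20, 23 to 27 and 21 to 24 members rose with BETd-246 in the 3 lines, with MDA-MB-157 first and MDA-MB-468 last, 3 to 7, 17 to 26 and 2 to 6 with BETi-211, and 14 to 17, 17 to 22 and 21 to 23 were higher with BETd-246 than with BETi-211. For thalidomide the counts were 0 to 1, 0 to 1 and 0. For the control levels they were 22 to 24 (MDA-MB-157 against MDA-MB-231), 23 to 26 (MDA-MB-157 against MDA-MB-468) and 23 to 27 (MDA-MB-468 against MDA-MB-231). In the same order of lines, differences of the BETd-246 effect numbered 7 to 18, 9 to 15 and 4 to 9, and those of the BETi-211 effect 4 to 18, 0 to 3 and 10 to 18.

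The 5 members risen with BETi-211 in MDA-MB-157 were 3 with DMSO alone as control, 8 with thalidomide alone and 3 with the line alone. Quantile normalization called 1 member with thalidomide in MDA-MB-157. With a pseudocount of 0.1, differences of the BETd-246 effect fell to 6 (MDA-MB-157 and MDA-MB-231) and 8 (MDA-MB-157 with MDA-MB-468), and those of the BETi-211 effect to 5, 0 and 10. With thalidomide alone as control, the MDA-MB-157 and MDA-MB-231 differences were 9 (BETd-246) and 7 (BETi-211). With DMSO alone, the BETi-211 differences were 6 there and 11 between MDA-MB-468 and MDA-MB-231. Among members more than 5 edits from other copies, 2 differed in the BETd-246 effect between MDA-MB-468 and MDA-MB-231. The cause was not tested.

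With the replicate number as a block, 19, 27 and 24 members rose with BETd-246 and 7, 25 and 7 with BETi-211, and 2 differed in the BETi-211 effect between MDA-MB-157 and MDA-MB-468. Deviations of same-numbered libraries correlated at -0.207 to 0.335, a range that cannot decide whether the numbers pair them. Of the 34 members' alternative values for each compound against controls, leaving out the 1 FPKM filter, which removed 0 genes, 3218 kept their direction and side of the threshold, 103 lost the call, 99 gained one and 0 reversed. Depth is unknown, so counting error at low FPKM could not be assessed.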

Other observations

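Among the small nucleolar RNA genes, most of which did not rise with BETd-246, the U3 genes SNORD3B-1 and SNORD3B-2 were singled out after their values were seen. U3 acts in ribosomal RNA cleavage. SNORD3B-1 changed by 1.30, 1.69 and 2.34 on the log2 scale with BETd-246 in the 3 lines, with MDA-MB-157 first and MDA-MB-468 last. SNORD3B-2 changed by 1.44, 2.54 and 2.06. The genes are near-identical copies, so the split of fragments between them is uncertain.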
